A study of Homo sapiens with 34 samples.

Results

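The CD43- cells of day 6 were compared with day 4 cells of the same culture, to follow how the fraction that does not carry the blood marker CD43 is formed. The members are the 3 samples sorted as CD43- on day 6 and the 3 unsorted samples of day 4, which are 6 of the 34 samples of the series, and all 19788 genes that passed a filter on low values, of 20255 in the table, were tested. All samples come from H1, an established human embryonic stem cell line, and 1 line is the only genetic background. The cells were primed as embryoid bodies and spread on a planar surface. BMP4 and VEGF started mesoderm formation, VEGF was the only growth factor after that, from before day 4, and no haematopoietic cytokine was added at any time. Day 4 samples hold total live cells, without sorting. The day 6 CD43- and CD43+ samples and the day 9 CD43- samples were sorted with an antibody to CD43, so sorting and time cannot be told apart in a comparison of day 6 with day 4. CD43- is defined by the absence of 1 surface protein, and the fraction may hold any cell type without it.

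In the embryo, mesoderm gives rise to endothelium, to the mesenchymal cells around vessels and to the first blood cells, which bud from haemogenic endothelium. Notch signalling between neighbouring endothelial cells, through ligands such as DLL4, goes with arterial identity. Mesenchymal cells lay down the collagens, fibronectin and matricellular proteins on which the other cells sit, and secrete growth factors and inhibitors.

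The values are normalised tag counts, which the authors corrected for GC content and made equal in distribution between samples. Every sample held the same set of values in another order, with 17856940 as the sum and 90700 as the highest, so a value is close to a rank and the depth of a library is unknown. Across genes, replicates of a population correlated at 0.982 to 0.984 on day 4 and at 0.965 to 0.984 in day 6 CD43- cells. Values below are given for replicates 1, 2 and 3 in that order. A difference is a log2 fold change on the log2(value + 1) scale, which understates the change of low genes, with its standard error (SE). P-values are from limma, adjusted by Benjamini-Hochberg over all genes tested, and they measure the spread between samples of 1 line. This spread, which also sets each SE, is pooled over 33 samples of 11 populations and is not that of the compared samples alone. A gene was called at an adjusted p below 0.05 and a fold change above 4. In bulk RNA, fewer cells of a type and less RNA per cell cannot be told apart.

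Between day 4 and the day 6 CD43- cells, 978 genes were called higher, 4.94% of those tested, and 548 were called lower, 2.77%. Of the genes called higher, 712 were protein-coding, and in 930 all 3 CD43- values lay above all 3 day 4 values. Of the genes called lower, 403 were protein-coding, and 530 had no overlap between the groups. Many of the called genes were low: in 439 of the 978 and 356 of the 548, no value of either group reached 100. The median log2 fold change over all genes tested was -0.08.

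The label of the fraction was first checked against its markers. SPN, the gene of CD43, was at 176, 152 and 196 on day 4 and at 28, 19 and 49 in the CD43- cells, against 8780, 6791 and 5979 in the CD43+ cells. The CD43- values lay below every day 4 value, and SPN was called lower (log2 fold change -2.51, SE 0.37, adjusted p = 4.84e-06). PTPRC, which encodes the later blood marker CD45, was listed at 0 in every day 4 sample and at 0, 0 and 2 in the CD43- cells (log2 fold change 0.53, adjusted p = 0.673). CD34, a marker of endothelium and of early blood progenitors, was at 1278, 1518 and 1319 on day 4 and at 12844, 6366 and 2758 in the CD43- cells. The groups did not overlap, and CD34 was called higher (log2 fold change 2.15, SE 0.34, adjusted p = 1.21e-05). The endothelial cadherin gene CDH5 was at 2330, 2512 and 2248 on day 4 and at 25876, 10844 and 5254 in the CD43- cells, and was also called higher (log2 fold change 2.27, SE 0.37, adjusted p = 1.90e-05). Without replicate 1 of the CD43- cells, the log2 fold changes of CD34 and CDH5 were 1.61 and 1.68, under the fold threshold.

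PECAM1, the endothelial adhesion molecule CD31, was at 1362, 1304 and 1590 on day 4 and at 8083, 4430 and 2049 in the CD43- cells. Its log2 fold change of 1.57 (SE 0.34, adjusted p = 5.76e-04) was under the fold threshold, and was 2.08 without replicate 3 of the CD43- cells. KDR, a VEGF receptor of mesoderm and endothelium, was at 25836, 29000 and 25836 on day 4 and at 48030, 48030 and 17338 on day 6, so the groups overlapped (log2 fold change 0.35, adjusted p = 0.449). MCAM, the gene of CD146 on endothelial and perivascular cells, overlapped as well, with 1494, 1870 and 1379 against 5632, 3258 and 1375 (log2 fold change 0.90, adjusted p = 0.101). For PDGFRA, a receptor of early mesoderm and mesenchyme, values of 7481, 5126 and 6066 on day 4 stood against 1040, 1326 and 3045 in the CD43- cells. All 3 CD43- values were lower, but the log2 fold change of -1.93 (SE 0.42, adjusted p = 5.85e-04) missed the fold threshold. It was -2.39 without replicate 3 of the CD43- cells and -2.06 without replicate 2 of day 4. Of the other mesenchymal markers, LUM and PDGFRB were already high on day 4 and were not called. LUM, a collagen-binding proteoglycan, was at 18772, 18772 and 20424 on day 4 and at 17368, 18772 and 37186 in the CD43- cells. PDGFRB, a receptor of perivascular cells, was at 3540, 3322 and 3610 and then at 1910, 3136 and 3610. COL1A1 and COL3A1, given with the collagens below, were not called either. DCN, also a marker of this kind, was low on day 4, at 212, 125 and 254. It was called higher in the CD43- cells, at 2177, 1624 and 5043 (log2 fold change 3.78). The CD43- cells of day 6 thus carried defining markers of both endothelium and mesenchyme.

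**Figure D1:**
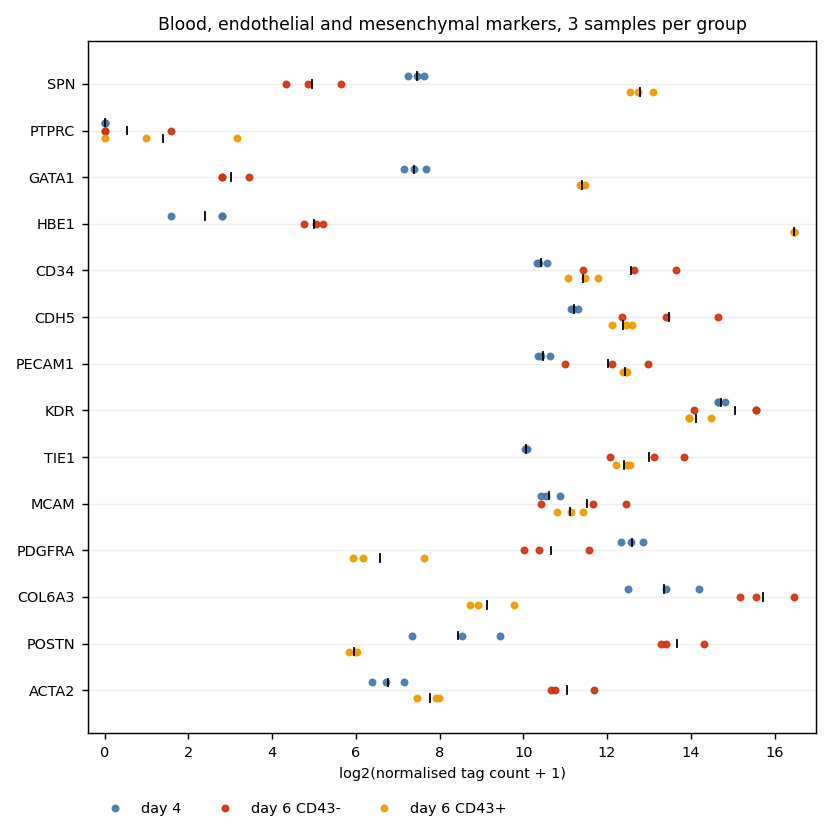
Levels of 14 marker genes on a log2(normalised tag count + 1) axis in the 3 day 4 samples, the 3 day 6 CD43- samples and the 3 day 6 CD43+ samples; each point is a sample and each black bar the mean of a group. The blood genes SPN and GATA1 lie lowest in CD43- cells and highest in CD43+ cells, while COL6A3, POSTN and ACTA2 lie highest in CD43- cells.

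By the rule for leading genes (protein-coding, called, no overlap, and a value of at least 200 in each sample of the higher group), 270 genes were higher and 86 lower, and the 12 with the largest log2 fold change in each direction are described, with 11 named in each. The largest rise was that of DLL4, the Notch ligand of arterial endothelium, which lies on chromosome 15 from 40929340 to 40939072 (hg38). It was at 17, 20 and 10 on day 4 and at 9493, 6068 and 2370 in the CD43- cells (log2 fold change 8.32, SE 0.50, adjusted p = 4.02e-12). Its 3 CD43+ values, 1518, 1168 and 1296, lay between those groups. CLDN5, the tight junction protein of endothelium, was at 2, 3 and 8 on day 4 and at 1821, 898 and 406 on day 6 (log2 fold change 7.52, adjusted p = 7.12e-10). ADGRF5, an adhesion receptor of endothelium, rose from 27, 42 and 22 to 4708, 2494 and 1054 (log2 fold change 6.26). MECOM, a transcription factor of blood stem cells and arterial endothelium, rose from 38, 34 and 46 to 8510, 3226 and 1272 (log2 fold change 6.35). A2M, a secreted protease inhibitor, was between 7 and 14 on day 4 and at 4963, 1760 and 288 on day 6 (log2 fold change 7.05). In each of these 5 genes replicate 1 of the CD43- cells was highest and replicate 3 lowest.

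The remaining leading genes that rose had other roles. MMP1, the interstitial collagenase, was at 1, 4 and 1 on day 4 and at 1000, 359 and 423 in the CD43- cells (log2 fold change 7.62, SE 0.62, adjusted p = 5.56e-10). SLN, a regulator of the muscle calcium pump, rose from 3, 6 and 8 to 387, 384 and 1210 (log2 fold change 6.48). MMP1 and SLN stayed between 2 and 14 in the CD43+ cells. The xenobiotic-metabolising enzyme CYP1A1 rose from 20, 12 and 12 to 2578, 1964 and 845 (log2 fold change 6.74). Transcription factors of the rapid response to stimuli were also among the 12: FOSB (log2 fold change 7.14), NR4A3 (6.39) and EGR3 (6.10).

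Tested directly between the sorted fractions of day 6, where 7.85% of the genes tested were higher in CD43- cells and 4.68% lower, 7 of the 12 rising genes were called higher in CD43- cells, among them MMP1, A2M, CYP1A1, SLN, MECOM and ADGRF5. The 12 were chosen for high CD43- values, which that comparison uses again. In CD43+ cells against the same day 4 samples, 9 of the 12 were called higher as well, DLL4, CLDN5, A2M, CYP1A1, MECOM and ADGRF5 among them. DLL4 (log2 fold change between the fractions 1.96, adjusted p = 0.00197) and CLDN5 (1.63, adjusted p = 0.0298) missed the fold threshold of that comparison. From day 6 to day 9 in CD43- cells, where 1.1% of all genes were called higher and 0.657% lower, none of the 12 was called by limma in either direction (lowest adjusted p = 0.156, with 1 lower at an unadjusted p below 0.05), which does not show equal levels. In all, 347 genes were called from day 6 to day 9, and 12 when the fit held only the populations compared.

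The largest of the 12 falls was that of GYPE, a gene of a red cell membrane protein family on chromosome 4 from 143870867 to 143905563. It was at 254, 254 and 410 on day 4 and at 0, 6 and 4 in the CD43- cells (log2 fold change -6.51, SE 0.58, adjusted p = 2.73e-09). It is nearly identical to GYPB, so reads may be shared between them. HDC, the enzyme that makes histamine, fell from 224, 206 and 272 to 2, 4 and 1 (log2 fold change -6.23). RHAG, a membrane protein of red cells, fell from 586, 652 and 904 to 16, 30 and 18 (log2 fold change -5.03), and KLF1, the erythroid transcription factor, from 821, 822 and 894 to 20, 34 and 44 (log2 fold change -4.72). SAMSN1, an adaptor protein of blood cells, fell from 1688, 1944 and 1791 to 105, 85 and 78 (log2 fold change -4.33). Those 5 genes were all lower in CD43- than in CD43+ cells by the direct test, where RHAG stood at 5898, 7320 and 6242 in CD43+ cells and SAMSN1 at 5043, 4510 and 6369.

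NTS, which encodes the peptide neurotensin, was at 90700, the maximum of the scale, in each day 2 sample, at 2400, 3576 and 2097 on day 4 and at 52, 75 and 42 in the CD43- cells of day 6 (log2 fold change -5.56, SE 0.74, adjusted p = 1.15e-06). In CD43- cells it was lower again on day 9, at 6, 1 and 8. In the CD43+ cells of day 6 NTS stood at 3349, 4545 and 3117, and limma did not call it against day 4 (log2 fold change 0.47, adjusted p = 0.624). Between the fractions it was called lower in CD43- cells (log2 fold change -6.02). ZAP70, a tyrosine kinase known from T cells, fell from 2745, 3984 and 2116 to 114, 154 and 148 (log2 fold change -4.36). PRR9, CALB2 and HAPLN4 fell too (log2 fold changes -5.83, -4.87 and -4.95). Another of the 12, RP11-73M18.2, was at 454, 602 and 462 on day 4 and at 22, 0 and 24 in the CD43- cells (log2 fold change -5.92, SE 1.78, adjusted p = 0.00826), and was not called without replicate 2 of the CD43- cells (log2 fold change -4.39, adjusted p = 0.0689). In CD43+ cells, where 7.73% of all genes were called lower than on day 4 and 6.8% higher, 5 of the 12 were called lower as well. These were ZAP70, PRR9, CALB2, HAPLN4 and RP11-73M18.2, and 2 others were called higher. Between the fractions, where 4.68% of all genes were lower in CD43- cells, 8 of the 12 were lower, PRR9 among them. The 12 were chosen for low CD43- values, which that comparison uses again.

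**Figure D2:**
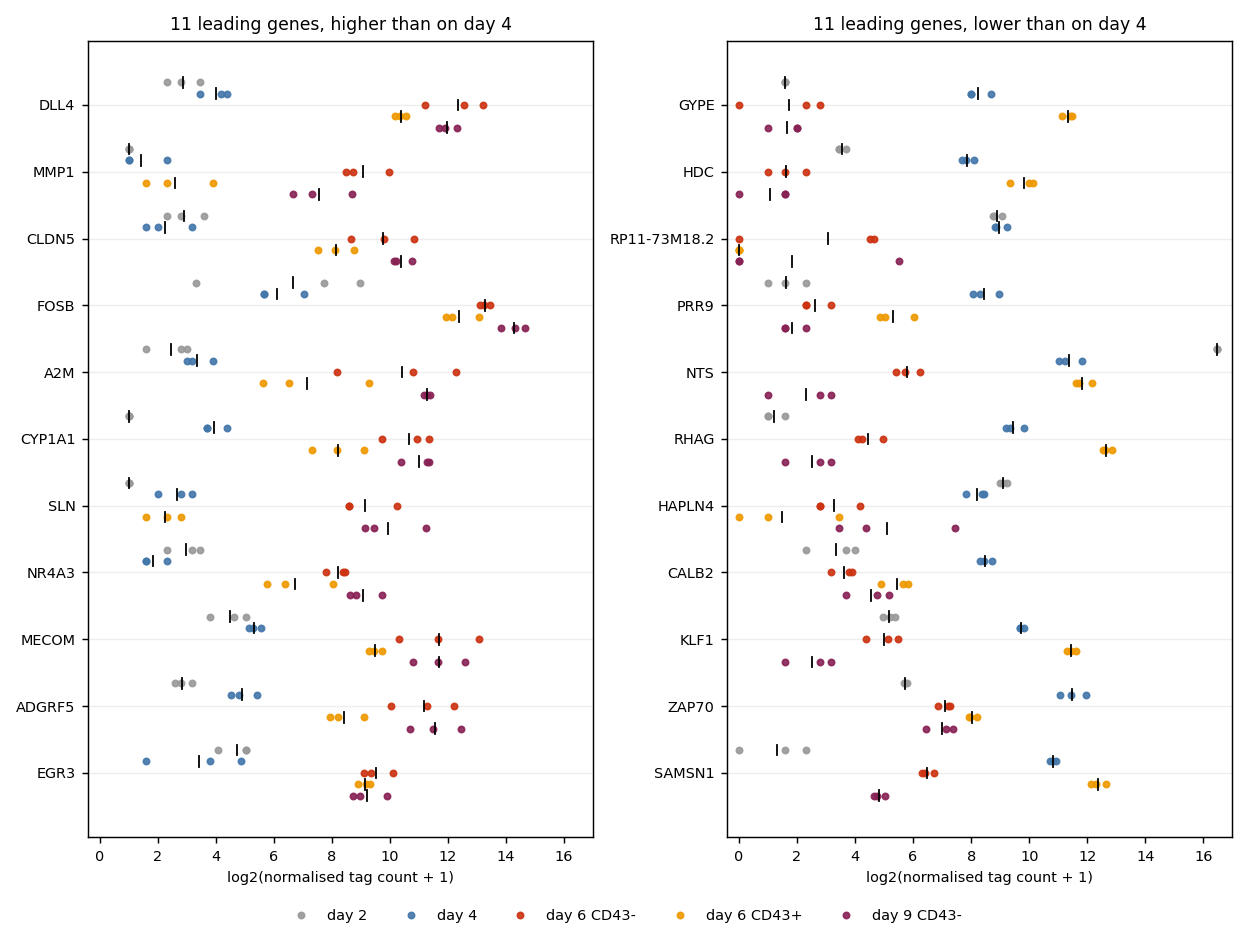
Levels of 11 leading genes that were higher (left) and 11 that were lower (right) in day 6 CD43- cells than on day 4, on a log2(normalised tag count + 1) axis; points are the 3 samples of each of 5 populations and black bars are means. DLL4 stands at 2370 to 9493 in day 6 CD43- cells against 10 to 20 on day 4. NTS is at 90700 on day 2, at 52, 75 and 42 in day 6 CD43- cells and at 3349, 4545 and 3117 in day 6 CD43+ cells.

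Genes were then grouped into 20 lists by role, and for each list the members called are read against the 4.94% of all genes called higher and the 2.77% called lower. Where a list had no member called in 1 direction, limma still gave unadjusted p-values below 0.05 there for some members. On the lower side these were 3 mesenchymal factors, 1 collagen, 8 other matrix genes and 1 arterial or Notch gene. Also on the lower side were 2 genes of the list of IGF binding proteins and related genes, and 3 immediate early genes. On the higher side these were 3 HOX genes and no primitive streak or proliferation gene. Of the 40 endothelial identity genes tested, 22 were called higher, 1 was called lower and 17 were not called, with a median log2 fold change of 2.13. TIE1, an endothelial receptor kinase, was at 1074, 1052 and 1086 on day 4 and at 14678, 8970 and 4290 in the CD43- cells (log2 fold change 2.95, SE 0.27, adjusted p = 5.04e-09). VWF, the clotting factor stored in endothelial cells, rose from 194, 216 and 210 to 4478, 2534 and 972 (log2 fold change 3.42, SE 0.47, adjusted p = 1.87e-06). ESM1, a proteoglycan of sprouting vessel tips, was at 4, 6 and 6 on day 4 and at 14668, 3680 and 93 on day 6 (log2 fold change 8.10, SE 1.31). EMCN, an endothelial sialomucin, rose from 1, 4 and 10 to 316, 116 and 72 (log2 fold change 4.86). ESAM, an adhesion protein of endothelial junctions, rose from 196, 436 and 244 to 6895, 3554 and 1116 (log2 fold change 3.45), and MMRN2, a matrix protein of vessels, from 618, 956 and 596 to 12007, 6697 and 2477 (log2 fold change 3.05). The 1 member called lower was GATA2, a transcription factor shared by endothelium and blood progenitors, at 6242, 5777 and 6000 on day 4 and at 1379, 1114 and 960 in the CD43- cells (log2 fold change -2.40, SE 0.31, adjusted p = 6.56e-07).

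The CD43- libraries differed in the level of these genes. In 22 of the 22 endothelial members called higher, replicate 1 of the CD43- cells was highest, and in 21 of the 22 replicate 3 was lowest. The median difference of the 40 genes from the day 4 mean was 3.20 in replicate 1, 2.18 in replicate 2 and 0.93 in replicate 3 on the log2 scale, and the level summed over the list was between 63163 and 71264 on day 4 and between 72941 and 351117 in the CD43- cells. Without replicate 1 of the CD43- cells 15 members were called higher, and without replicate 3, 25 were. In the CD43+ cells, which are set against the same day 4 samples and where 6.8% of all genes were called higher and 7.73% lower, 11 members were called higher and the median was 0.97. Tested between the fractions, 8 members were higher in CD43- cells and GATA2 was lower.

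Of 20 genes of arterial or venous identity and Notch signalling, 11 were called higher, none was called lower and 9 were not called, with a median of 2.14. Beside DLL4, the ligand JAG1 was at 632, 764 and 556 on day 4 and at 3035, 4329 and 2664 in the CD43- cells (log2 fold change 2.34, SE 0.29, adjusted p = 4.86e-07). The endothelial receptor NOTCH4 rose from 74, 94 and 44 to 5979, 2680 and 1096 (log2 fold change 5.25, SE 0.39, adjusted p = 1.13e-10). Targets of the pathway rose as well: HEY1, a repressor of arterial endothelium, from 245, 258 and 193 to 5704, 3896 and 1882 (log2 fold change 3.91), HES1, a repressor used in many tissues, from 245, 312 and 236 to 2076, 1991 and 3268 (log2 fold change 3.18), and NRARP, a feedback inhibitor, from 104, 149 and 132 to 1659, 1201 and 618 (log2 fold change 3.07). HES1 differed from the others in being highest in replicate 3. Genes of arterial cells, the ephrin ligand EFNB2 (log2 fold change 2.93, SE 0.38) and the connexin GJA4 (3.92, SE 0.34), were called higher with no overlap. CXCR4, the receptor of CXCL12, was at 342, 325 and 286 on day 4 and at 3838, 1492 and 444 in the CD43- cells. It was called higher (log2 fold change 2.10, SE 0.69, adjusted p = 0.014), but not without replicate 1 of the CD43- cells (log2 fold change 1.36, adjusted p = 0.134). With only the populations compared, limma did not call CXCR4 either (adjusted p = 0.0851). In the CD43+ cells 4 members were called higher, 2 were called lower and the median was 0.52. The direct test called 7 members higher in CD43- than in CD43+ cells, among them JAG1, NOTCH4, HEY1 and EFNB2.

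The collagen genes that passed the test were all higher. Of 26 tested, 8 were called higher and none lower, with a median of 0.95, and 24 of the 26 log2 fold changes were above 0. COL6A3, a chain of the microfibrillar collagen VI, was at 10824, 5779 and 18755 on day 4 and at 37170, 48036 and 90700 in the CD43- cells, and at 423, 484 and 876 in the CD43+ cells (log2 fold change from day 4 2.37, SE 0.41, adjusted p = 3.89e-05; without replicate 2 of day 4 1.94). COL15A1, a basement membrane collagen, rose from 34, 28 and 32 to 5641, 2636 and 614 (log2 fold change 6.02, SE 0.76), and COL21A1, a collagen of vessel walls, from 48, 38 and 76 to 690, 432 and 1370 (log2 fold change 3.82, SE 0.61). COL4A2, a chain of the basement membrane collagen IV, was at 7633, 8972 and 9896 and then at 48050, 48050 and 22836 (log2 fold change 2.09, SE 0.24), 1.92 without replicate 1 or 2 of the CD43- cells and 1.99 without replicate 1 of day 4. The count of 8 was 5 without replicate 1 of the CD43- cells and 4 without replicate 2. Replicate 3 of the CD43- cells was the lowest in 5 of the 8, COL15A1 and COL4A2 among them. The most abundant collagens were at the limit of the scale: COL3A1 was at 48056, 48056 and 90700 on day 4 and at 90700 in each CD43- sample, and the same value of 90700 stood in each CD43- sample for FN1, the fibronectin gene, so a further rise could not be measured. COL1A1 was at 22812, 22812 and 37166 and then at 25836, 29000 and 37166 (log2 fold change 0.18, adjusted p = 0.721).

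Of 57 other matrix proteins and matrix enzymes, 8 were called higher and none lower, with a median of 0.48. POSTN, the matricellular protein periostin, was at 372, 162 and 696 on day 4, at 10084, 10840 and 20424 in the CD43- cells and at 64, 62 and 56 in the CD43+ cells (log2 fold change from day 4 5.23, SE 0.36, adjusted p = 4.45e-11). CTGF, a matricellular protein also named CCN2, rose from 266, 432 and 288 to 7294, 8466 and 9860 (log2 fold change 4.72, SE 0.38, adjusted p = 4.91e-10), and its relative CYR61 from 842, 1193 and 910 to 6592, 8684 and 7914 (log2 fold change 2.98, SE 0.27). THBS1, which encodes thrombospondin, rose from 342, 564 and 316 to 6360, 9888 and 6244 (log2 fold change 4.21, SE 0.44). DCN, the collagen-binding proteoglycan decorin, rose from 212, 125 and 254 to 2177, 1624 and 5043 (log2 fold change 3.78, SE 0.43) and was called higher again on day 9, at 11508, 18772 and 13324. Replicate 1 of the CD43- cells was the highest in 2 of the 8 matrix genes called higher, one of them LAMA4, a laminin chain, at 2110, 989 and 98.

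The sorted fractions of day 6 were also compared for matrix genes. In the CD43+ cells, 11 collagens were called lower than on day 4, with a median of -1.56. Of the other matrix genes, 21 were called lower and 2 were called higher. By the direct test, 17 collagens and 28 other matrix genes were higher in CD43- cells, and 1 matrix gene was lower. Mesenchymal transcription factors had a median of 0.45, with 7 of 38 called higher and none lower. With a minimum value of 100 the median was 0.81, and with a pseudocount of 10, 4 were called higher. FOXC1, a forkhead factor of mesenchyme and endothelium, rose from 101, 133 and 66 to 2532, 2314 and 639 (log2 fold change 4.0, SE 0.62, adjusted p = 1.05e-05), MEF2C, a muscle and endothelial factor, from 54, 64 and 76 to 2050, 1098 and 469 (log2 fold change 3.97, SE 0.31), and HIC1, a repressor of mesenchymal progenitors, from 82, 24 and 30 to 238, 286 and 300 (log2 fold change 2.78, SE 0.36). Between the fractions, 21 of the 38 were higher in CD43- cells.

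Contractile and pericyte genes had no common direction, with 2 of 24 called higher, 1 called lower and a median of 0.23. ACTA2, smooth muscle actin, rose from 83, 142 and 105 to 1620, 3320 and 1736 (log2 fold change 4.28, SE 0.51, adjusted p = 1.97e-07), and NT5E, the surface enzyme CD73, from 17, 10 and 14 to 645, 388 and 200 (log2 fold change 4.69, SE 0.34). TAGLN, another smooth muscle protein, was at 1898, 3084 and 1586 and then at 3456, 7907 and 3084, with overlap (log2 fold change 1.06, adjusted p = 0.0186). MYOCD, the coactivator of smooth and cardiac muscle genes, fell from 523, 960 and 568 to 20, 88 and 26 (log2 fold change -4.16, SE 0.61, adjusted p = 4.20e-06). Of 21 cardiac genes, 2 were called higher and 1 was called lower. The natriuretic peptide gene NPPB was at 17, 20 and 1 and then at 102, 233 and 75 (log2 fold change 3.75), and the heavy chain gene MYH6 at 305, 352 and 367 and then at 32, 60 and 32 (log2 fold change -3.08, adjusted p = 0.0154). MYH6 was not called with a pseudocount of 0.1 (adjusted p = 0.0766).

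**Figure D3:**
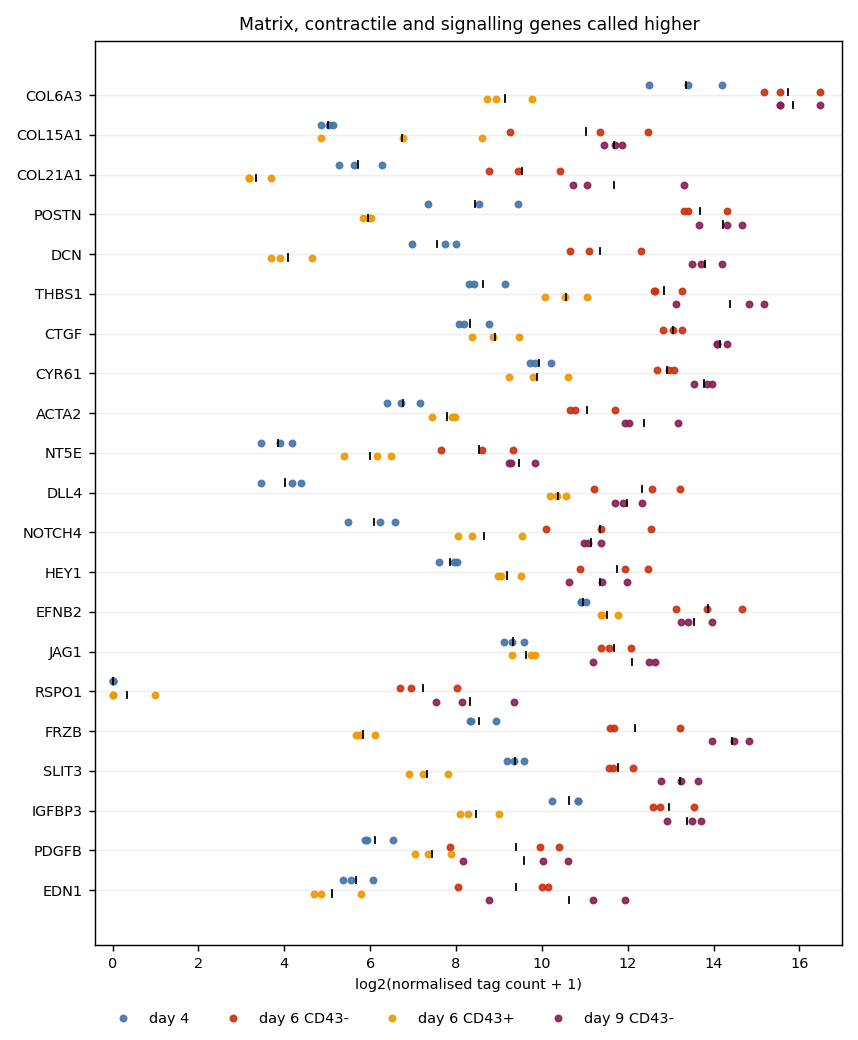
Levels of 21 matrix, contractile, Notch and growth factor genes called higher in day 6 CD43- cells than on day 4, on a log2(normalised tag count + 1) axis, in 4 populations of 3 samples each, with black bars for means. POSTN stands at 10084 to 20424 in day 6 CD43- cells, above day 4 and far above the CD43+ values of 56 to 64.

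Secreted factors followed. Of 46 stromal growth factors and niche ligands, 7 were called higher, 1 lower and 38 not, with a median of 0.61. The count of 7 was 3 without replicate 1 of the CD43- cells, 4 without replicate 2 and 4 without replicate 1 of day 4. Replicate 3 of the CD43- cells, which was also lowest in most endothelial genes, was the lowest in 6 of the 7. PDGFB, by which endothelium attracts pericytes, was at 60, 92 and 58 on day 4 and at 1342, 993 and 230 in the CD43- cells (log2 fold change 3.28, SE 0.53, adjusted p = 1.65e-05). EDN1, the vasoconstrictor endothelin, rose from 46, 66 and 40 to 1032, 1121 and 264 (log2 fold change 3.74, SE 0.64). THPO, the platelet growth factor thrombopoietin, fell from 104, 99 and 93 to 14, 15 and 28 (log2 fold change -2.38, SE 0.54), and was not called with a pseudocount of 10 (-1.94). The stem cell niche ligand KITLG was at 307, 348 and 267 and then at 1178, 634 and 518 (log2 fold change 1.25, adjusted p = 0.00924), under the fold threshold. CXCL12, a chemokine of stromal cells, was at 568, 564 and 448 and then at 309, 580 and 318 (log2 fold change -0.44, adjusted p = 0.471), while the CD43+ cells held 10, 16 and 10. Between the fractions, 24 of the 46 ligands were higher in CD43- cells, KITLG and CXCL12 among them, and 1 was lower.

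A list of 12 genes held the IGF binding proteins with IGF receptors and the IGF2BP genes of mRNA-binding proteins. Of these 12, 2 were called higher, none lower, and the median was 1.05. With a minimum value of 100, 1 was called higher and the median was 0.66, and without replicate 3 of the CD43- cells these were 4 and 1.46. IGFBP3 rose from 1842, 1197 and 1842 to 6922, 6144 and 12018 (log2 fold change 2.32, SE 0.37, adjusted p = 1.38e-05). IGFBP1 was listed at 0 on day 4 and at 165, 77 and 7 in the CD43- cells, which gives no fold against 0. Of 39 WNT ligands and modulators, 8 were called lower and 2 higher, with a median of -0.02. LGR5, a receptor of R-spondins, fell from 1423, 1488 and 1320 to 48, 104 and 73 (log2 fold change -4.28, SE 0.87), and the feedback inhibitor NKD1 from 2328, 1915 and 2255 to 296, 420 and 677 (log2 fold change -2.30, SE 0.25). RSPO1, an R-spondin, was listed at 0 in the day 4 samples and at 103, 123 and 258 in the CD43- cells, and FRZB, a secreted WNT inhibitor, rose from 325, 322 and 490 to 3304, 3063 and 9499 (log2 fold change 3.62, SE 0.40, adjusted p = 6.67e-08). Of 30 axon guidance genes, which also guide vessels, 3 were called higher and 1 lower: SLIT3 rose from 579, 651 and 769 to 3205, 4425 and 3032 (log2 fold change 2.4), EFNA1 from 428, 473 and 430 to 3895, 3224 and 2058 (log2 fold change 2.74), and SEMA3C fell from 3724, 2722 and 2330 to 188, 363 and 650 (log2 fold change -3.02).

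A part of the blood genes fell in the CD43- fraction. Of 36 tested, 12 were called lower, 3 were called higher and 21 were not called, with a median of -0.59 and a summed level of 9293 to 10322 on day 4 and 4381 to 6758 in the CD43- cells. In the CD43+ cells the sum was 191000 to 224862 and 29 members were called higher. GATA1, the erythroid and megakaryocytic master regulator, was at 166, 140 and 203 on day 4 and at 10, 6 and 6 in the CD43- cells (log2 fold change -4.37, SE 0.62, adjusted p = 2.73e-06). The progenitor factor MYB fell from 550, 550 and 608 to 166, 105 and 62 (log2 fold change -2.46) and GFI1, a repressor in blood progenitors, from 632, 798 and 702 to 48, 40 and 22 (log2 fold change -4.30). The 3 members called higher were embryonic and fetal globin genes at low values. HBE1 was at 2, 6 and 6 and then at 32, 26 and 36, HBZ at 0, 2 and 2 and then at 32, 22 and 26, and HBG2 at 2, 1 and 0 and then at 22 in each CD43- sample. With a pseudocount of 10 none of the 3 was called. Globin genes are near copies of each other, so their reads may be shared. In the CD43+ cells HBE1 was at 90700 in each sample, and its CD43- mean was 0.0345% of its CD43+ mean. Over the 36 blood genes, the CD43- mean was between 0% and 136% of the CD43+ mean, with a median of 1.11%, and the highest shares were those of LCP1, an actin-bundling protein, at 136%, the growth factor receptor KIT at 84.0% and the erythropoietin receptor EPOR at 56.3%. HBA2, AHSP and HBM were listed at 0 in every CD43- sample.

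Some genes of early embryonic programmes fell as well. Of 30 primitive streak and early mesoderm genes, 6 were called lower and none higher, with a median of -1.22. EOMES, a transcription factor of the primitive streak, fell from 95, 76 and 60 to 2, 4 and 1 (log2 fold change -4.63, SE 0.77, adjusted p = 2.37e-05), and APLNR, a receptor of lateral mesoderm, from 37178, 29015 and 29015 to 3301, 3819 and 7032 (log2 fold change -2.82, SE 0.48). HAND1, a factor of extraembryonic and lateral mesoderm, was at 18763, 17356 and 18763 and then at 5556, 5638 and 10436 (log2 fold change -1.41, adjusted p = 0.0187), under the fold threshold. Pluripotency genes had a median of -1.42, with 4 of 22 called lower and UTF1 called higher at low values (13, 4 and 4 against 73, 58 and 20). POU5F1, the core pluripotency factor, was at 2618, 2328 and 2176 and then at 712, 1328 and 618 (log2 fold change -1.50, adjusted p = 0.0271), under the fold threshold. Of the 38 HOX genes, only HOXB1, at the anterior end of its cluster, was called, from 1423, 795 and 1310 to 84, 46 and 247 (log2 fold change -3.52, SE 0.75, adjusted p = 4.56e-04), and the median was -0.21. In the CD43+ cells, 29 HOX genes were called lower than on day 4 with a median of -3.88, and the direct test called 29 higher in CD43- cells. HOXA9, for example, was at 378, 422 and 409 on day 4, at 212, 251 and 151 in the CD43- cells and at 4, 2 and 0 in the CD43+ cells. The 2 earlier lists also fell in the CD43+ cells, where 7.73% of all genes were called lower than on day 4. There, 16 of the 30 primitive streak and early mesoderm genes were called lower, with a median of -2.34. Of the 22 pluripotency genes 13 were, with a median of -2.19. Between the fractions, 9 of the 30 were higher and 1 was lower in CD43- cells, and of the 22, 8 were higher and 2 lower.

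Genes of other lineages were measured too. Of 26 genes of endoderm and yolk sac secretion, 11 were called higher and 1 lower, with a median of 1.61. APOB, the protein of lipoprotein particles, was at 66, 88 and 76 on day 4 and at 1180, 2192 and 2561 in the CD43- cells (log2 fold change 4.61, SE 0.68, adjusted p = 5.46e-06). TTR, the thyroid hormone carrier, was at 0, 3 and 0 and then at 85, 227 and 380 (log2 fold change 6.94, SE 0.71), FGB, a fibrinogen chain, at 50, 54 and 52 and then at 339, 958 and 1538 (log2 fold change 3.91), and RBP4, the retinol carrier, at 8, 0 and 8 and then at 97, 215 and 196 (log2 fold change 5.22). The summed level of the list was 12039 to 13340 on day 4 and 18555 to 27459 in the CD43- cells. In contrast to the endothelial genes, 9 of the 11 members called higher were lowest in replicate 1 of the CD43- cells. SOX17 stands in this list and in the endothelial one, and with values of 437, 444 and 366 on day 4 and 3750, 2183 and 798 on day 6 it followed the order of the endothelial genes (log2 fold change 2.17, and 1.67 without replicate 1 of the CD43- cells). Between the fractions, 20 of the 26 were higher in CD43- cells. Of 20 epithelial and trophectoderm genes none was called in either direction by limma, with 4 above and 7 below day 4 at an unadjusted p below 0.05 and a median of -0.43, and of 14 neural genes 1 was called higher and 2 lower.

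**Figure D4:**
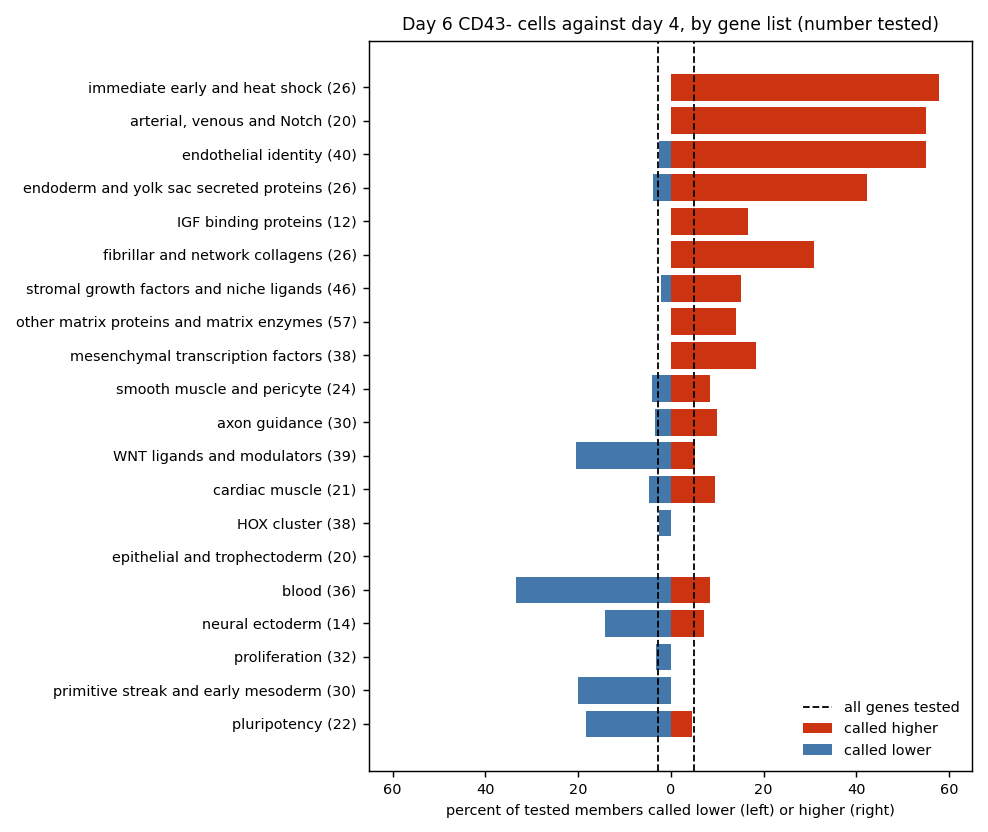
Percent of the tested members of each of 20 gene lists that were called lower (left, blue) or higher (right, red) in day 6 CD43- cells than on day 4, ordered by the median fold change of each list, with the number tested in brackets; dashed lines mark the 4.94% and 2.77% called among all genes. Arterial and endothelial lists reach 55% called higher and the blood list 33.3% called lower.

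Proliferation genes were lower by less than the fold threshold. All 32 log2 fold changes were below 0, with a median of -1.14, and 30 of the 32 had an adjusted p below 0.05, which 25.2% of all genes had on that side. The threshold of a 4-fold change was passed by 1, the cell cycle kinase CDK1, which fell from 4480, 4116 and 3324 to 669, 876 and 1011 (log2 fold change -2.23, SE 0.25, adjusted p = 8.33e-08). TOP2A, which untangles DNA in dividing cells, was at 9886, 8673 and 9886 and then at 2688, 3980 and 4539 (log2 fold change -1.38, adjusted p = 1.10e-04), and MKI67, the proliferation marker, at 5779, 5478 and 6002 and then at 2862, 4372 and 3682 (log2 fold change -0.68, adjusted p = 0.0148). Of the 32 genes, 31 were lowest in replicate 1 of the CD43- cells. The median against day 4 was -0.73 in the CD43+ cells, and limma called no member between the fractions, with 18 lower in CD43- cells at an unadjusted p below 0.05.

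Immediate early genes, which cells switch on within minutes of a stimulus and which cell handling can also raise, were the list with the largest share called. Of 26 immediate early and heat shock genes, 15 were called higher and none lower, with a median of 2.31. FOS, a component of the transcription factor AP-1, was at 276, 292 and 557 on day 4 and at 13287, 13963 and 18714 in the CD43- cells (log2 fold change 5.41, SE 0.61, adjusted p = 8.50e-08). Its partners JUN and JUNB rose from 410, 420 and 472 to 8678, 7330 and 7907 (log2 fold change 4.20, SE 0.30) and from 374, 460 and 459 to 6357, 6242 and 4539 (log2 fold change 3.72, SE 0.21), and the phosphatase gene DUSP1 from 138, 156 and 174 to 2778, 2984 and 3470 (log2 fold change 4.29, SE 0.27). EGR1, a zinc finger factor of the same response, was at 1599, 1218 and 2370 and then at 6364, 5406 and 8797 (log2 fold change 2.01, SE 0.56, adjusted p = 0.0044), and was under the fold threshold without replicate 3 of the CD43- cells (1.82) or replicate 1 (1.98) or 2 (1.79) of day 4. The sorted CD43+ cells, set against the same unsorted day 4 samples, had 11 members called higher and a median of 1.78, with FOS at 7132, 7007 and 9860. Between the sorted fractions, 3 members were higher in CD43- cells and 1 was lower. All sorted samples were incubated with antibody and passed through a sorter, and day 4 samples were not, so the part of sorting in these differences was not tested.

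**Figure D5:**
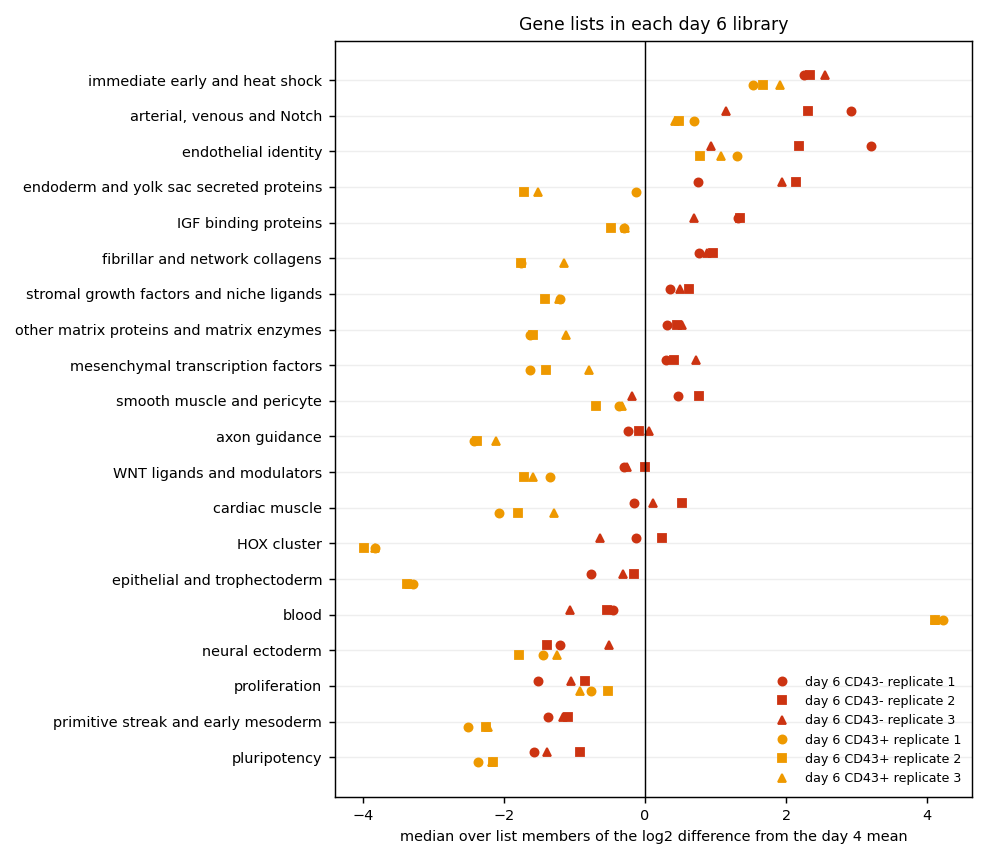
Median over the tested members of each gene list of the log2 difference from the day 4 mean, in each of the 3 day 6 CD43- and 3 day 6 CD43+ libraries, marked by replicate. The medians of the endothelial list spread from 0.93 in replicate 3 to 3.20 in replicate 1 of the CD43- cells. Those of the collagen list lie between 0.76 and 0.97, though single collagens differed more between the libraries.

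Promoter sequence was available from RefSeq (GRCh38.p14) for 14140 of the genes tested, with 14129 symbols, as 20243 windows of 250 bases before to 50 bases after a start. The motifs were searched on both strands, and a CArG box can itself contain TATAAA. The CArG box, the site of serum response factor, was in 2.49% of the windows of genes called higher, 1.27% of those called lower and 1.2% of all. TATAAA, a form of the TATA box, was in 14.2%, 9.13% and 7.53%, and other forms of that box were not searched. GGAATG, the site of TEAD factors, was in 14.3%, 13.2% and 11.8%. The promoter of DLL4 is shown because that gene had the largest rise. Its 200 bases shown hold no exact match to the 3 motifs as searched, which does not exclude another form of the TATA box. Those of CTGF, FOS and EGR1 are shown after their matches were seen, because together they hold all 3 motifs. The 200 bases before the start are given on the strand of the gene, with matches in capitals. They lie at chr15:40929140-40929339 on the plus strand for DLL4, chr6:131951373-131951572 on the minus strand for CTGF, chr14:75278628-75278827 on the plus strand for FOS and chr5:138465279-138465478 on the plus strand for EGR1.
DLL4: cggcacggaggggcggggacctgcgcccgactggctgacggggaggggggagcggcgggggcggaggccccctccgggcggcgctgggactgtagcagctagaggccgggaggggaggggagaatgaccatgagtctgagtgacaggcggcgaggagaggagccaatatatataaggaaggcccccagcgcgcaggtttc
CTGF: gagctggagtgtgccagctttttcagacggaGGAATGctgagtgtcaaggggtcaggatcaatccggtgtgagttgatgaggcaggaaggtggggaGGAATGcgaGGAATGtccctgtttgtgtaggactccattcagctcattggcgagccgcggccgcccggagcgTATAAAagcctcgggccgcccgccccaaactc
FOS: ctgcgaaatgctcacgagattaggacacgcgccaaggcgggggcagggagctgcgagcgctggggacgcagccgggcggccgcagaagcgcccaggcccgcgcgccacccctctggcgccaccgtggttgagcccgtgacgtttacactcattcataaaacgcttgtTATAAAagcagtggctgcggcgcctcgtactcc
EGR1: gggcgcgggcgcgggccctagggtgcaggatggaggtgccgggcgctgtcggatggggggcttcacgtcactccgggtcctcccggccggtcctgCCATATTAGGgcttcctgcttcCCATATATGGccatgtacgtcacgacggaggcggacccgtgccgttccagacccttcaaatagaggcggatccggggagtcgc
The capitals mark 3 TEAD sites, at -169, -104 and -95 from the start, and a TATA box at -32 in CTGF, a TATA box at -33 in FOS, and 2 CArG boxes at -105 and -83 in EGR1. A match is a description of these letters and not evidence of binding.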

How the data were processed

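RNA was sequenced from H1 cells in 33 replicated samples, 3 for each of 11 populations, and 1 undifferentiated sample, which was not analysed here. The paper names RiboBio and Annoroad Gene Technology as sequencing providers and does not say which samples went to each. Whether the provider differed between the populations compared is unknown, and its part in the differences was not tested. Per the study's methods, alignment used RSEM with bowtie2 on an Ensembl 81 annotation. The submitters' processing notes list bcl2fastq, STAR 2.7, Bowtie2, RSEM and hg38 without their roles. The unit of the deposited table is a normalized score, neither raw counts nor CPM, which the authors made from tag counts with EDASeq by correction for GC content and full normalization between samples, and which holds whole numbers. All 34 samples share 1 set of sorted values, so depth is unknown and no counting interval was computed; the error is the spread between replicates. Strand use in the counting is not given in the sources used here, so overlapping and antisense genes are uncertain. GENCODE v29 held 20148 of the identifiers, with overlapping coordinates for 20123, and 13 symbols name a pair of genes each.

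A linear model with a mean per population was fitted to log2(value + 1) of the 33 samples in limma 3.58.1 (R 4.3.3), using eBayes with a trend, for the 19788 genes that reached 10 in 3 samples or more. A call required a fold change over 4 together with a Benjamini-Hochberg adjusted p under 0.05, the thresholds the authors used with DESeq2. Comparisons made were day 6 CD43- cells against day 4, day 6 CD43+ cells against day 4, the sorted fractions of day 6 against each other, and day 9 against day 6 CD43- cells. The first pair share the day 4 samples, so their results are given side by side. The members, lists and rules were chosen with earlier results of these data known. Lists were written from general knowledge, and 11 of their symbols were absent or on more than 1 row of the table. Named genes were the 12 largest rises and falls under the rule stated with them, list members, and SPN, PTPRC, CD34, CDH5, PECAM1, KDR, MCAM and PDGFRA. LUM, PDGFRB and POU5F1 were on the marker list. Some genes that the rule selects are not reported here. Same-numbered samples did not deviate together between day 6 CD43- cells and day 4 (correlation across genes -0.021 to 0.087), so numbers were not taken as pairs there. Between the fractions of day 6 every such correlation was over 0.1 (0.109 to 0.199), so the numbers were read as pairs, from the data and not from the labels. The main fit, which gave the counts between the fractions, holds no term for these pairs. Fits with a replicate block are given at the end. The procedure was run on simulated data with independent noise, equal in all populations, and with changes put only into genes above a low level. That run does not show how it performs on low genes or on replicates as unlike as the CD43- ones. Promoters were matched through current Ensembl symbols. Tables and plots used pandas 2.3.3, numpy 2.4.6 and matplotlib 3.10.9. Alternatives were pseudocounts of 0.1 and 10, no filter, a minimum of 100, median-of-ratios scaling, quantile normalization, a replicate block, only the populations compared, robust variances, protein-coding genes, a fold change above 2, and leaving out each replicate.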

Additional observations from a re-analysis of the deposited data

Results flagged for a closer look

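Against day 4, 15 listed or leading genes were called higher in day 6 CD43- cells and lower in CD43+ cells, and 12 were called lower in CD43- cells and higher in CD43+ cells. Over all genes tested there were 37 of the first kind and 47 of the second. Both comparisons use the same day 4 samples. Genes chosen in this way must differ between the fractions, so the difference is given as a description. The values here are log2 fold changes of CD43- over CD43+ cells. The matrix genes among them were POSTN at 7.73, DCN at 7.27, COL6A3 at 6.59, SPON2 at 6.57, COL21A1 at 6.19, LAMA4 at 5.29 and COL12A1 at 4.46. Secreted or guidance factors were FRZB at 6.32, IGFBP3 at 4.51 and SLIT3 at 4.46, and receptors were EPHA3 at 5.08 and CXCR4 at 4.15. NPPB stood at 6.16, AFP, the fetal serum protein, at 5.85, and UTF1 at 5.49. Where a fraction lay near 0, the size of the difference depends on the 1 added to each value. The CD43+ values were 0, 4 and 0 for NPPB, 3, 0 and 0 for EPHA3, and 0 in each sample for UTF1. The same holds for genes near 0 in CD43- cells, such as GYPE below, at 0, 6 and 4.

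On the other side were red cell genes, with GYPE at -9.62, GYPB at -9.50, ALAS2, the first enzyme of haem synthesis in red cells, at -9.24, and RHAG at -8.23. Blood transcription factors followed, with GATA1 at -8.38, GFI1B at -7.42, NFE2 at -6.50, GFI1 at -6.49, MYB at -5.42 and IKZF1 at -4.45. SPN, which defines the sort, stood at -7.85 and is no finding between the fractions. SFRP5, a secreted WNT inhibitor, was at -5.01.

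Several of these genes were near the fold threshold against day 4. LAMA4 was not called against day 4 without replicate 1 of the CD43- cells (log2 fold change 1.99, adjusted p = 0.103). COL12A1 was not called without replicate 2 of the CD43- cells (1.52) or replicate 1 of day 4 (2.0). With only the populations compared, limma called neither LAMA4 (adjusted p = 0.1) nor COL12A1 (adjusted p = 0.0594). SFRP5 was at -1.76 without replicate 1 and -1.92 without replicate 2 of the CD43- cells, and at -1.91 without replicate 3 of day 4. EPHA3 was not called with a pseudocount of 0.1 (log2 fold change 2.63, adjusted p = 0.0585) or of 10 (1.77), and UTF1 (1.74) and GFI1B (-1.55) were not called with a pseudocount of 10.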

How the results depend on the processing

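Of 978 genes called higher and 548 called lower, 921 and 453 were also called with a pseudocount of 0.1, and 973 and 478 with median-of-ratios scaling. With a pseudocount of 10, 485 were called higher and 181 lower, and 1495 in CD43+ cells against day 4, 1458 between the fractions and 153 from day 6 to day 9; low genes lose most there by construction. The members called higher then fell to 0 in the pluripotency, blood and neural lists and to 1 in the cardiac list. A minimum of 100 left 311 called lower and 1909 for CD43+ cells, over fewer genes. A fold change above 2 gave 2244 higher, 2014 lower, 5906 for CD43+ cells, 5366 between the fractions and 746 from day 6 to day 9. With only the populations compared, 12 genes were called from day 6 to day 9, and 0 with a replicate block added; the cause was not tested.

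Leaving out each replicate gave 875 to 1048 genes higher, 543 to 605 lower, 2811 to 2904 for CD43+ cells, 2397 to 2555 between the fractions and 302 to 362 from day 6 to day 9. With a replicate block shared by all samples, 977 genes were called higher and 547 lower, and 2481 between the fractions. The block with only the populations compared gave 723 higher and 435 lower. Between the fractions, where that block pairs the samples, it gave 2319, against 2480 in the main fit. Of the named genes, 119 were followed over 2139 gene and setting pairs: 41 lost the call, 10 gained it and 1 changed sign, LUM, which was not called and stood at -0.10 without replicate 3 and at 0.45 without replicate 1 of the CD43- cells. A pseudocount of 10 lost 9 of them, the block with only the populations compared 8, and leaving out replicate 1 of the CD43- cells 7. Depth is unknown, so a limit of detection could not be set.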
